A study of Mus musculus with 4 samples.

Results

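The metallothionein genes Mt1 and Mt2 are 2 of the 31053 genes counted in single cells of the mouse aorta. They were chosen as a pair from earlier results of the same counts, by symbol, for their levels and shares of positive cells by cell type and library and for the part of their counts held by the top cells, so these values are given as a description without a test. The cells came from the aortic arch, its main branches and the tissue around them in male mice that were 3 months old at the start. The mice were Nrf2flox/flox (labelled Nrf2Cdh5Lox) or Nrf2Cdh5tKO, in which Cre driven by the Cdh5 promoter excises the exon of Nrf2 needed for DNA binding in endothelium and in part of the blood lineage, and all mice of both genotypes carried the floxed allele. The normocholesterolemic mice received saline and a standard diet, and the atherosclerotic mice received a high-fat diet for 21 weeks and 1 further treatment. The aortas of 4 normocholesterolemic or 3 atherosclerotic mice were pooled in each group before live cells were sorted, so that each of the 4 groups is 1 library and there is no replicate. The libraries are called the normocholesterolemic flox, the normocholesterolemic KO-labelled, the atherosclerotic flox and the atherosclerotic KO-labelled library, and series of 4 values follow this order.

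Metallothioneins are small cysteine-rich proteins that bind zinc and copper through the sulphur of their cysteines and buffer the free metal in the cell. In mice Mt1 and Mt2 are expressed in most tissues, whereas Mt3 is mainly a gene of the brain and Mt4 of stratified epithelia. Transcription of Mt1 and Mt2 is switched on by the zinc sensor Mtf1, which binds metal response elements in their promoters, and also by glucocorticoids, by interleukin 6 through Stat3 and by oxidative stress. In the aortic samples the family was in practice Mt1 and Mt2. Over all kept cells of the 4 libraries Mt3 had 99, 61, 1 and 21 counts of unique molecular identifiers (UMIs, each standing for 1 captured mRNA molecule), and Mt4 had 1, 0, 0 and 0. Mt1 had 408737, 119047, 26919 and 62112 UMIs, and Mt2 had 76439, 24089, 6702 and 13660.

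All 4 genes lie on the plus strand of mouse chromosome 8. In GRCm38, the same assembly as mm10, Mt1 (ENSMUSG00000031765) has 3 exons between 94179082 and 94180327, and Mt2 (ENSMUSG00000031762) has 3 exons between 94172664 and 94173568, 5513 bases before it. An antisense gene, Gm45774, overlaps 749 bases of Mt2. It had 259, 98, 23 and 50 UMIs, few beside those of Mt2. The coding sequences are shown because the 2 genes resemble each other closely and are counted separately. Both are 186 bases long (Mt1 at chr8:94179311-94180193 and Mt2 at chr8:94172848-94173427 with introns removed, plus strand, GENCODE annotation), with the 38 bases at which they differ in capitals.
Mt1 coding: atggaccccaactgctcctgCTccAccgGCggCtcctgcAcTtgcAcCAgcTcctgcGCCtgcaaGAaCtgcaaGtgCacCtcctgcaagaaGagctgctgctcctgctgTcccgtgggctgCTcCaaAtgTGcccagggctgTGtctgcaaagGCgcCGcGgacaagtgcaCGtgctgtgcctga
Mt2 coding: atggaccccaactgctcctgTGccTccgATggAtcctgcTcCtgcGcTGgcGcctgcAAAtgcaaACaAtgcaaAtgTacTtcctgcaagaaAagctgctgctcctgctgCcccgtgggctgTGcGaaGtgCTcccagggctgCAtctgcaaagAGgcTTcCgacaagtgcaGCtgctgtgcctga
The sequences are identical at 148 of 186 bases (79.6%). Each holds 20 TGC or TGT codons, which encode the metal-binding cysteine, among 61 codons before the stop (32.8%), and all 20 stand at the same places in both genes. The libraries were read at the 3′ end of the mRNA, and how reads shared by both genes were assigned was not tested.

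The promoters are shown because they carry the letters through which metals act on these genes. Each window runs from 250 bases before to 30 bases after the start given by RefSeq on GRCm38, plus strand, with matches to the core of the metal response element (TGCACNC or TGCGCNC, either strand) in capitals.
Mt1 promoter, chr8:94178839-94179118: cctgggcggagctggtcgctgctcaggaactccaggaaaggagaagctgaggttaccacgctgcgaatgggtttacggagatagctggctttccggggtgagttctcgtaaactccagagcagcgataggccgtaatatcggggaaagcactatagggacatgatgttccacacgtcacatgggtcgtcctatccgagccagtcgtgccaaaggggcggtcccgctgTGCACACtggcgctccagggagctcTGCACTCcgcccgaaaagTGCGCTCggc
Mt2 promoter, chr8:94172368-94172647: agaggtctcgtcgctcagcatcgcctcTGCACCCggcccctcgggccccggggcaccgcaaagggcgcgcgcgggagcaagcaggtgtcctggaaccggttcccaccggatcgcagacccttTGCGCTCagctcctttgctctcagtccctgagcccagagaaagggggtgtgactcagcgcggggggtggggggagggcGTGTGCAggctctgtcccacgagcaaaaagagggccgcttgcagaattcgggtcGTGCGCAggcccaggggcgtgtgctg
The Mt1 window holds 3 matches, at bases 228 to 234, 253 to 259 and 271 to 277 of the window. The Mt2 window holds 4, at bases 28 to 34, 123 to 129, 201 to 207 and 255 to 261. Of 32851 windows of the same size at annotated mouse genes, 24.1% held at least 1 such match, 1.73% held 3 or more and 0.405% held 4 or more. The core of the antioxidant response element, through which Nrf2 acts (TGACNNNGC), was found once in the Mt2 window (TGACTCAGC, bases 172 to 180), not in the Mt1 window and in 11.5% of all windows. The palindrome bound by Stat proteins (TTCNNNGAA) was found in neither, against 7.83% of all windows. A match is a match of letters only. The annotation also gives Mt1 transcripts that begin later, at 94179211 and 94179241. The Mt2 transcripts of the annotation begin at 94172664 and 94172860, both after the end of the Mt2 window. The bases between these starts and the windows were not searched.

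The 4 libraries held 15599 barcodes, of which 14148 passed the limits of 200 to 6000 genes and at most 15% mitochondrial UMIs, with medians of 12133, 14152.5, 10963 and 9200.5 UMIs per cell. Pairs of libraries shared between 2 and 10 barcodes. A cell type was given to 12895 cells (91.1%) that carried at least 3 markers of 1 lineage and not of a second lineage; 717 cells with markers of several lineages and 536 with too few were left out. In the gated cells the median marker of the fibroblast list was found in 97.0% of fibroblast-like cells, that of the smooth muscle list in 97.7% of smooth muscle-like cells and that of the macrophage list in 90.6% of macrophage-like cells. The targeted gene, Nfe2l2 (Nrf2), was counted at its 3′ end, and whether these counts read the excised exon was not tested. In endothelial-like cells it was higher, not lower, under the Nrf2Cdh5tKO label, by 0.98 (0.54 to 1.43) on the log2 scale between the normocholesterolemic libraries and by 1.04 (0.41 to 1.68) between the atherosclerotic ones. What this count says about the excision was not tested, and the genotype is given as labelled. The normocholesterolemic flox library stood apart from the other 3 in Mt1 in nearly every cell type, and values are given with and without it. Intervals are exact, at 95%, and cover counting error only, not the spread between mice.

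Fibroblast-like cells, which make and maintain the matrix of the adventitia, had the highest Mt1 level of the main cell types in each of the 4 libraries. Their level, in UMIs per 1000000 UMIs of the same cells (CPM), was 5577 (5557 to 5597) in 4469 cells of the normocholesterolemic flox library and 3855 (3831 to 3879) in 1619 cells of the normocholesterolemic KO-labelled library. In the atherosclerotic libraries it was 3370 (3326 to 3415) in 480 flox cells and 3604 (3571 to 3636) in 1217 KO-labelled cells. The first library was thus the highest, and the other 3 lay within 1.14-fold of each other. Mt1 was the 8th, 14th, 25th and 19th most abundant of all genes in these cells, and Mt1 and Mt2 together made up 0.678%, 0.469%, 0.427% and 0.451% of all UMIs. Mt2, which encodes the sister protein, stood at 1203, 833, 903 and 902 CPM and ranked 137th, 186th, 173rd and 171st. Nearly all fibroblast-like cells held Mt1, 99.1%, 98.8%, 97.9% and 97.8% of cells with a UMI, and 90.9%, 89.5%, 88.3% and 88.4% held Mt2.

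Macrophage-like cells came next. Their Mt1 level was 4030 (3984 to 4075) CPM in 680 cells, 2047 (1992 to 2103) in 323, 1645 (1567 to 1727) in 112 and 1918 (1862 to 1974) in 284. The first library again lay above the other 3, which spread over 1.24-fold. Mt2 was far lower in these cells, at 370, 150, 115 and 130 CPM. Smooth muscle-like cells, the contractile cells of the media, had 2454 (2432 to 2475), 1092 (1064 to 1120), 1830 (1736 to 1928) and 1363 (1322 to 1405) CPM of Mt1 in 1325, 359, 69 and 290 cells. Their Mt2 level was 247, 116, 398 and 158 CPM. A single cell decided both values of the atherosclerotic flox library, as described further on: without it Mt1 was 1170 and Mt2 164 CPM, and the library was then no longer above its KO-labelled counterpart in Mt1.

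Endothelial-like cells, which line the vessel, and lymphocytes were at the low end. Endothelial-like cells had 566 (495 to 644), 153 (110 to 207), 165 (114 to 232) and 300 (223 to 396) CPM of Mt1 in only 78, 46, 30 and 23 cells. T cell-like cells had 362 (338 to 387), 94.1 (79.6 to 110), 71.1 (52.9 to 93.5) and 101 (74.7 to 134) CPM, and B cell-like cells had 360, 83.6, 104 and 139. In T cell-like cells of the normocholesterolemic flox library, 1 of 227 cells held 17.0% of the Mt1 UMIs, and without it the level was 304 CPM.

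Ordered by the median over libraries, Mt1 was highest in fibroblast-like cells (3729 CPM), followed by macrophage-like (1982), smooth muscle-like (1597), endothelial-like (233), B cell-like (121), thymocyte-like (102) and T cell-like cells (97.5). Neighbours were told apart by their order within libraries rather than by their ranges, because the first library widened all of them. Fibroblast-like cells ranged from 3370 to 5577 CPM and macrophage-like cells from 1645 to 4030, so that the ranges overlapped, but the former were higher in all 4 libraries. Macrophage-like cells were above smooth muscle-like cells in 3 of 4 libraries, and below them in the atherosclerotic flox library, at a log2 ratio of −0.15, which was 0.45 without the top 1% of cells, 0.06 as a mean over cells and 0.03 with a stricter gate of 4 markers. The ranges of smooth muscle-like cells (1092 to 2454) and endothelial-like cells (153 to 566) did not overlap. Endothelial-like cells overlapped the lymphocytes in range but were above B cell-like and T cell-like cells in each library, with intervals clear of those of T cell-like cells in 3 of 4. B cell-like and T cell-like cells changed order between libraries and were not separated beyond their spread. For Mt2 the order was fibroblast-like (903 CPM), smooth muscle-like (203), macrophage-like (140), endothelial-like (48.3), B cell-like (30.1), T cell-like (21.4) and thymocyte-like cells (17.7). Only the fibroblast-like range of Mt2, 833 to 1203, lay clear of all other types in this list.

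**Figure D1:**
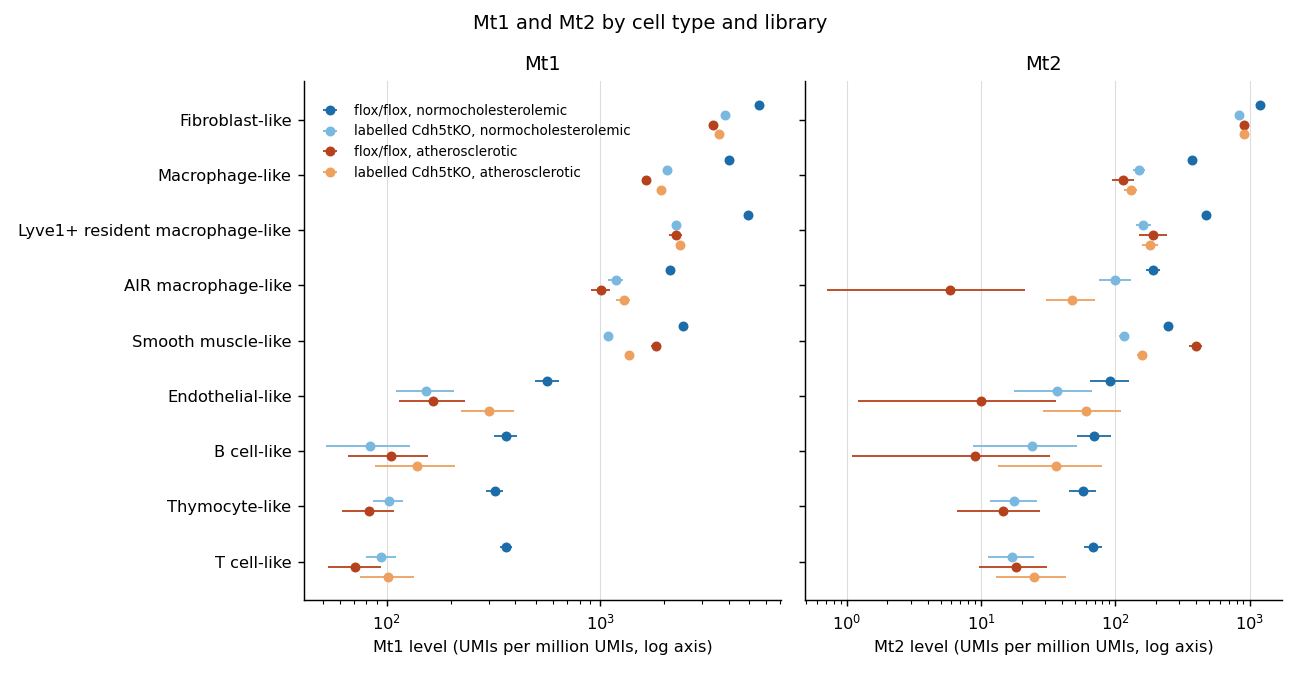
Mt1 (left) and Mt2 (right) levels in CPM on a log axis, by cell type (rows) and library (colours), with exact 95% Poisson intervals for counting error and only groups of at least 20 cells. For Mt1 the points of the normocholesterolemic flox library lie to the right in every row that holds several libraries, and fibroblast-like cells lie highest for both genes.

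Free RNA in a droplet gives UMIs also in cells that do not express a gene. The shares of positive cells were therefore set against those in T cell-like cells, the type with the lowest median Mt1 level over libraries. For Mt2 the lowest median was that of thymocyte-like cells, at 17.7 against 21.4 CPM in T cell-like cells. Without thinning, 89.0%, 67.7%, 35.9% and 52.5% of T cell-like cells held an Mt1 UMI, at median depths of 7959, 7801, 6622 and 6242 UMIs against 12056, 16482, 13841.5 and 10572 in fibroblast-like cells. After each cell was thinned to 1000 UMIs, the share with Mt1 was 87.4%, 78.0%, 79.5% and 82.5% in fibroblast-like cells and 26.8%, 10.2%, 6.41% and 12.1% in T cell-like cells, with 163 shallower fibroblast-like and 4 T cell-like cells left out. As a description, with T cell-like cells taken for their low level in the same counts, the fibroblast-like share was above that background in each library. The same held for macrophage-like cells, at 83.8%, 68.4%, 56.6% and 67.0%, and for smooth muscle-like cells, at 75.9%, 51.7%, 46.3% and 53.6%. Endothelial-like cells were at 36.4% (25.7 to 48.1) in the first library, against 26.8% (21.1 to 33.1) in T cell-like cells, and at 17.8%, 20.7% and 13.6% in the others. Each share at this depth was above that of T cell-like cells, but on only 77, 45, 29 and 22 cells and with overlapping intervals. Thinned to 3000 UMIs, the share in the first library was 70.7% (57.3 to 81.9) against 64.8% (57.9 to 71.2) in T cell-like cells. In the second library the order was reversed, at 16.7% (6.37 to 32.8) against 33.9% (25.4 to 43.2). The endothelial-like share was thus not separated from the background at either depth, although the level in CPM was higher. Endothelial-like cells held Mt1 at 10.1%, 3.97%, 4.91% and 8.34% of the fibroblast-like level and the fibroblast gene Dcn at 8.11%, 4.43%, 5.18% and 16.1% of it. For Mt2 the thinned share was 53.3%, 43.3%, 45.0% and 49.8% in fibroblast-like, 28.5%, 11.8%, 10.4% and 10.7% in macrophage-like and 19.6%, 10.6%, 11.9% and 11.6% in smooth muscle-like cells, against 4.91%, 4.72%, 3.85% and 5.17% in T cell-like cells.

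The background itself differed between libraries. T cell-like cells held Mt1 at 6.49%, 2.44%, 2.11% and 2.80% of the fibroblast-like level, and Dcn, which encodes the matrix protein decorin, at 1.23%, 0.689%, 0.585% and 0.859%. Both were highest in the normocholesterolemic flox library. Mt1 per 100 Dcn UMIs was 185 (166 to 208), 99.3 (78.7 to 125), 73.9 (50.4 to 108) and 75.4 (50.9 to 111) in T cell-like cells, against 35.3, 28.1, 20.5 and 23.1 in fibroblast-like cells. Which cells the free RNA came from was not tested. The ratio was higher in T cell-like than in fibroblast-like cells in each library. In macrophage-like cells it was 1857, 846, 1298 and 747, and in smooth muscle-like cells 1256, 924, 1633 and 819. Endothelial-like cells had 44.1 (37.6 to 51.6), 25.1 (17.5 to 35.5), 19.4 (12.9 to 28.3) and 12 (8.76 to 16.1), near the fibroblast-like values or below them. The part of free RNA in their Mt1 level was not tested. The part of free RNA in the differences between libraries was not tested.

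Among the macrophage-like cells, the Lyve1+ resident cells of the adventitia had more Mt1 than the aortic intima resident (AIR) cells. Lyve1+ resident macrophage-like cells had 4955, 2267, 2256 and 2371 CPM of Mt1 in 355, 198, 60 and 150 cells, and outside the first library their levels lay within 1.05-fold. AIR macrophage-like cells had 2132, 1181, 1005 and 1287 CPM in 136, 49, 24 and 52 cells. The 2 ranges did not overlap, and the Lyve1+ cells were higher in each of the 4 libraries. Cavity macrophage-like cells could be read only in the normocholesterolemic flox library, at 4045 (3940 to 4153) CPM in 78 cells. Mt2 was 476, 161, 191 and 182 CPM in Lyve1+ cells. In AIR cells it was 191 (170 to 214), 99.8 (75.0 to 130) and 47.5 (30.7 to 70.1) CPM in the first, second and last library, and the atherosclerotic flox library had only 2 Mt2 UMIs in 24 cells, under the floor of 3 counts.

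Fibroblast-like cells were also read by the state markers they carried (at least 2 of a set and of 1 set only). Cells with Pi16, Dact2 and Dpp4, markers of adventitial progenitor-like fibroblasts, had 4493, 2530, 2644 and 3134 CPM of Mt1 in 655, 257, 122 and 230 cells. Cells with Comp, Fmod and Chad, genes of tendon- and cartilage-like matrix, had 5017, 2409, 2895 and 3458 CPM in 204, 53, 25 and 91 cells. Cells with Penk, Epyc and Fgf10 had 6136, 3040 and 3346 CPM in 336, 64 and 57 cells of the first, second and last library. All these states were highest in the normocholesterolemic flox library. The state marked by Cilp and Meox1, genes of activated matrix-producing fibroblasts, had the opposite order, with 3976 (3848 to 4106) CPM in 71 cells of the normocholesterolemic flox and 5425 (5304 to 5548) in 81 cells of the normocholesterolemic KO-labelled library, a log2 ratio of 0.45 (0.39 to 0.51). Its Mt2 differed in the same direction, by 0.69 (0.56 to 0.83). The highest Mt1 level of any state, 7683 (7488 to 7881) CPM, was that of 58 cells with Tfap2b and Mab21l2 in the normocholesterolemic flox library; the other 3 libraries held 3 cells or fewer of that state.

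Between libraries the ratio of the summed levels was taken within each cell type, and a difference of at least 2-fold was counted. Of the 24 ratios (Mt1 and Mt2, 3 main cell types, 4 comparisons), 6 passed 2-fold, all of them lower in the first-named library. Over the same types and comparisons, between 1.08% and 12.1% of all genes tested passed 2-fold in either direction. Of these, 5 had the normocholesterolemic flox library as the reference, and the other rested on a single smooth muscle cell. The comparison of genotype labels in normocholesterolemic mice and that of diet in flox mice share this reference library, so their values are not independent of each other.

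With the KO label over flox in normocholesterolemic mice, Mt1 in fibroblast-like cells was lower, 3855 against 5577 CPM, a log2 ratio of −0.53 (−0.54 to −0.52), and Mt2 was lower by the same amount, −0.53 (−0.55 to −0.51). Neither passed 2-fold, which 4.60% of the 13222 genes tested in these cells did, in either direction, and 7.24% of genes had a lower ratio than Mt1. Smooth muscle-like cells had Mt1 at −1.17 (−1.21 to −1.13) and Mt2 at −1.09 (−1.22 to −0.98), both past 2-fold, as 3.47% of genes were. In macrophage-like cells Mt1 was at −0.98 (−1.02 to −0.93), just short of 2-fold, and Mt2 at −1.30 (−1.46 to −1.15), beside 8.26% of genes past 2-fold. The median of all genes in macrophage-like cells was itself at 0.22 in this comparison, and relative to it Mt1 was at −1.20 and Mt2 at −1.52. Lower values were also found in the types in which Mt1 was near its background, with −1.94 (−2.20 to −1.69) in T cell-like, −2.11 (−2.82 to −1.46) in B cell-like and −1.88 (−2.40 to −1.40) in endothelial-like cells.

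With the KO label over flox in atherosclerotic mice, Mt1 was close to level. It was at 0.10 (0.07 to 0.12) in fibroblast-like cells, where 1.08% of genes passed 2-fold, and Mt2 was at 0.00 (−0.05 to 0.04). In macrophage-like cells Mt1 was at 0.22 (0.14 to 0.30) and Mt2 at 0.18 (−0.14 to 0.50), beside 4.09% of genes past 2-fold. Smooth muscle-like cells had Mt1 at −0.42 (−0.51 to −0.34) and Mt2 at −1.34 (−1.54 to −1.13), where 2.76% of genes passed 2-fold. These last values depended on the single high cell of the flox library. Without the top 1% of cells of each library, Mt1 was at 0.03 (−0.08 to 0.13) and Mt2 at −0.16.

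With atherosclerotic over normocholesterolemic flox mice, Mt1 in fibroblast-like cells was at −0.73 (−0.75 to −0.71) and Mt2 at −0.41 (−0.45 to −0.37), beside 6.69% of genes past 2-fold. In macrophage-like cells Mt1 was at −1.29 (−1.36 to −1.22) and Mt2 at −1.69 (−1.97 to −1.42), both past 2-fold, as 9.27% of genes were, and relative to the median of all genes, 0.14, they were at −1.43 and −1.83. In smooth muscle-like cells Mt1 was at −0.42 (−0.50 to −0.35) and Mt2 at 0.69 (0.52 to 0.85), beside 12.1% of genes past 2-fold. Without the top 1% of cells both genes were lower there, Mt1 at −1.0 and Mt2 at −0.53 (−0.80 to −0.28).

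With atherosclerotic over normocholesterolemic KO-labelled mice, a comparison without the outlying library, Mt1 in fibroblast-like cells was at −0.10 (−0.11 to −0.08) and Mt2 at 0.11 (0.08 to 0.15), where 4.36% of genes passed 2-fold. In macrophage-like cells Mt1 was at −0.09 (−0.15 to −0.04) and Mt2 at −0.20 (−0.43 to 0.02), beside 2.90% of genes. In smooth muscle-like cells both genes were higher in the atherosclerotic library, Mt1 at 0.32 (0.26 to 0.38) and Mt2 at 0.45 (0.27 to 0.62), beside 2.62% of genes past 2-fold; without the top 1% of cells they were at 0.24 and 0.40. With 1 pool of mice in each group, whether any of these differences exceeds that between mice cannot be told.

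**Figure D2:**
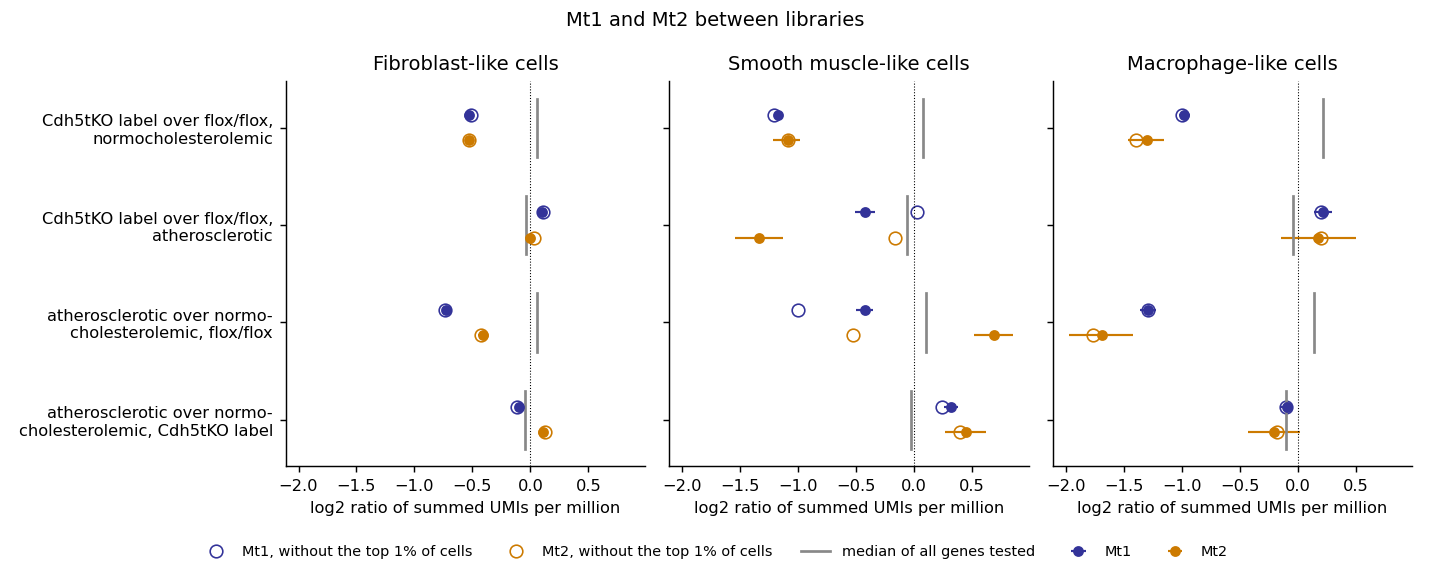
Log2 ratios of summed CPM between libraries (x axis) for Mt1 (blue) and Mt2 (orange) in fibroblast-like, smooth muscle-like and macrophage-like cells, for the 4 comparisons (rows); bars are exact 95% counting intervals, open circles leave out the top 1% of cells and grey lines are the median of all genes tested. The first row and the one for diet in flox mice, which share the normocholesterolemic flox library, hold the lowest Mt1 values, −1.17 in smooth muscle-like and −1.29 in macrophage-like cells, and in smooth muscle-like cells the open circles leave the filled ones wherever the atherosclerotic flox library is used.

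Other genes were highest in the first library as well. The products of the 6 heat shock genes refold damaged protein, and the genes are also switched on when tissue is dissociated. In fibroblast-like cells 6 of 6 were lower in both comparisons with the first library as reference, with medians of −0.69 and −0.77. In each, 2 of them passed 2-fold, beside 4.60% and 6.69% of all genes. The summed level of the 6 was 1755, 1211, 1153 and 1109 CPM in fibroblast-like cells, 3178, 2101, 1854 and 2174 in smooth muscle-like cells and 2038, 1584, 1047 and 1370 in macrophage-like cells. Of the 3 with the most UMIs, Hspa1a was at 199, 84.3, 95.8 and 80.3 CPM in fibroblast-like cells, Hsp90aa1 at 677, 553, 552 and 494, and Hspe1 at 326, 246, 234 and 244. The 11 immediate early genes summed to 20098, 19032, 19347 and 19807 CPM in fibroblast-like cells, also highest in the first library but with smaller differences. Single genes differed in direction. Fos was at 4137, 3986, 4915 and 4771 CPM, highest in the atherosclerotic flox library, Junb at 3533, 3346, 2776 and 3232, highest in the first, and Egr1 at 2811, 2811, 2730 and 2748. In smooth muscle-like cells the same sum was 18639, 13145, 13064 and 18171, and in macrophage-like cells it was lowest in the first library, at 12850 against 14311 to 18792. The part of these genes in the Mt1 difference was not tested.

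The genes that handle zinc had small differences in fibroblast-like cells. All 14 of the list were tested there, and 0 of them passed 2-fold in any of the 4 comparisons, as neither Mt1 nor Mt2 did. Of all genes in these cells 4.60%, 1.08%, 6.69% and 4.36% did. The medians of the list were 0.17, −0.08, 0.18 and −0.10 in the order in which the comparisons were given. Mtf1, the zinc sensor, chosen here for its role, was at 12.2, 16.1, 14.9 and 12.6 CPM in fibroblast-like cells. Of the 3 zinc transporters with the most UMIs, Slc39a1, which brings zinc into the cell, was at 90.1, 101, 153 and 128 CPM, Slc39a7, which releases it from the endoplasmic reticulum, at 79.7, 68.2, 66.5 and 65.4, and Slc39a13, of the same family, at 43.3, 45.8, 42.9 and 43.2. In smooth muscle-like cells 0 of 13, 0 of 9, 1 of 13 and 0 of 13 tested zinc genes passed 2-fold, beside 3.47%, 2.76%, 12.1% and 2.62% of all genes. In macrophage-like cells 1 of 13, 0 of 8, 3 of 12 and 0 of 10 did, beside 8.26%, 4.09%, 9.27% and 2.90%. Among these zinc genes, Slc39a1 in macrophage-like cells was higher in the atherosclerotic flox library, 154 against 63.4 CPM, a log2 ratio of 1.28 (1.01 to 1.54), while Mt1 was lower there. Of the 6 copper-handling genes, 0 of those tested passed 2-fold in fibroblast-like, smooth muscle-like or macrophage-like cells in any comparison. Of all genes, between 1.08% and 12.1% did. Ratios of this list in other cell types were not taken. The copper chaperone Atox1 was at 350, 293, 323 and 362 CPM in fibroblast-like cells, the copper and zinc enzyme Sod1 at 101, 133, 142 and 132, and Cox17, which carries copper to cytochrome oxidase, at 72.8, 66.2, 94.0 and 99.4.

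The Nrf2 targets are shown because Nrf2 is the gene under study and Mt1 and Mt2 respond to oxidative stress. In fibroblast-like cells the medians of the list were −0.35, −0.19, −0.11 and −0.08. Of its genes 1 of 11, 0 of 10, 2 of 11 and 0 of 10 passed 2-fold, beside 4.60%, 1.08%, 6.69% and 4.36% of all genes. In the third comparison the genes past 2-fold went in both directions in fibroblast-like and in macrophage-like cells. In macrophage-like cells the medians were −0.62, −0.88, −0.06 and −0.13. Past 2-fold were 3 of 10, 4 of 8, 3 of 10 and 0 of 8, beside 8.26%, 4.09%, 9.27% and 2.90% of all genes. In these cells Txnrd1, a thioredoxin reductase, was at 215, 67.2, 197 and 63.6 CPM and so lower under the KO label at both diets. Mt1 was at −0.98 and 0.22 in the same 2 comparisons. Hmox1, which degrades heme, was at 776, 494, 286 and 433 CPM in macrophage-like cells, and Prdx1, a peroxiredoxin, at 532, 381, 466 and 400. Txnrd1, Hmox1 and Prdx1 thus each had their highest level in the first library, as did Mt1. The 2 flox libraries were not separated in Txnrd1, at −0.13 (−0.35 to 0.09) with atherosclerotic over normocholesterolemic. Not all genes of the list had this order in macrophage-like cells. Gclc and Srxn1 were also highest in the first library, whereas Slc7a11, Gsr and G6pdx were highest in the atherosclerotic flox library. The part of Nrf2 in the Mt1 differences was not tested.

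Glucocorticoid-responsive genes were read first in smooth muscle-like cells. Their medians there were −0.86, 0.31, −0.18 and 1.11, with 4 of 10, 1 of 8, 2 of 10 and 6 of 10 past 2-fold, the last 6 all higher in the atherosclerotic KO-labelled library, beside 3.47%, 2.76%, 12.1% and 2.62% of all genes. In fibroblast-like cells 2, 0, 0 and 0 of 10 passed 2-fold, beside 4.60%, 1.08%, 6.69% and 4.36% of all genes. The 2 were Zbtb16 and Tsc22d3, at −1.30 and −1.19 with the KO label over flox in normocholesterolemic mice. In that comparison Fkbp5, Per1, Sgk1, Klf9 and Errfi1 were also lower. Cebpd, Nr3c1 and Ddit4 were higher, Ddit4 with an interval that held 0. Tsc22d3 was at 132, 57.9, 74.6 and 75.2 CPM and Zbtb16 at 64.9, 26.3, 55.5 and 51.7 in fibroblast-like cells, both highest in the first library, as Mt1 was. Other types differed, with Zbtb16 at 44.2, 17.2, 76 and 57.1 in smooth muscle-like and Tsc22d3 at 245, 250, 152 and 220 in macrophage-like cells. In macrophage-like cells the KO label over flox in normocholesterolemic mice gave both directions, with Fkbp5 at −1.34 and Nr3c1 at 0.86. In smooth muscle-like cells Cebpd, a transcription factor of the acute phase, was at 361, 168, 178 and 460 CPM. Errfi1, a brake on growth factor receptors, was at 264, 154, 203 and 359 there, and Klf9 at 277, 212, 279 and 292. In fibroblast-like cells Cebpd was at 1869, 1947, 1531 and 1670 CPM, Errfi1 at 488, 450, 512 and 544 and Klf9 at 398, 347, 352 and 392. The list of acute phase and Stat3 genes had medians of −0.55, 0.15, −0.27 and 0.54 in fibroblast-like cells. Of its 7 genes 1, 1, 2 and 2 passed 2-fold, beside 4.60%, 1.08%, 6.69% and 4.36% of all genes. These were only Saa3, at −1.67, 4.77, −1.08 and 5.35, and Lcn2, at 2.87 and 3.73 in the last 2 comparisons. Saa3 had only 5 UMIs in the atherosclerotic flox library. Socs3, the feedback inhibitor of Stat3, was at 800, 647, 698 and 640 CPM, Stat3 itself at 123, 99, 102 and 106, and Il6, which activates it, at 219, 305, 123 and 207.

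Mt1 was spread unevenly over the cells of a type. In fibroblast-like cells the median cell had 38.4, 25.9, 21.9 and 25.4 Mt1 UMIs per 10000, the cell at the 10th percentile 7.12, 4.20, 3.97 and 5.42, and that at the 90th 125, 95.4, 73.7 and 74.0. The top 10% of cells held 36.6%, 34.3%, 41.4% and 40.2% of all Mt1 UMIs, against 19.5%, 17.6%, 19.6% and 21.9% of all UMIs in as many of the deepest cells. The 20 genes nearest to Mt1 in level had medians of 23.9%, 22.4%, 22.7% and 25.3%, and 2, 3, 2 and 0 of the 20 exceeded Mt1. The top 1% held 6.36%, 4.84%, 7.42% and 6.89%. No small group of cells therefore carried the fibroblast signal, and for Mt2 the top 10% held a similar 39.6%, 38.5%, 41.2% and 39.5%. In macrophage-like cells the top 10% held 32.8%, 39.6%, 46.4% and 44.9% of Mt1 UMIs.

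The concentration differed more between libraries in smooth muscle-like cells. The top 10% of cells held 35.8%, 38.3%, 67.1% and 50.5% of their Mt1 UMIs. In the atherosclerotic flox library a single cell of 69 had 536 Mt1 and 185 Mt2 UMIs among 19798, which is 37.7% of all Mt1 and 59.9% of all Mt2 UMIs of the type. The next cell had 137 Mt1 UMIs. The high cell carried smooth muscle genes, with 156 UMIs of Tagln, 80 of Acta2 and 9 of Myh11, and fewer of the fibroblast genes Dcn (13), Lum (13) and Col1a2 (11), and it was not called a doublet. In the atherosclerotic KO-labelled library the highest cell had 349 Mt1 UMIs among 9650, or 8.26% of the type. The median smooth muscle-like cell, which a single cell hardly moves, had 15.3, 7.41, 5.82 and 8.38 Mt1 UMIs per 10000.

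**Figure D3:**
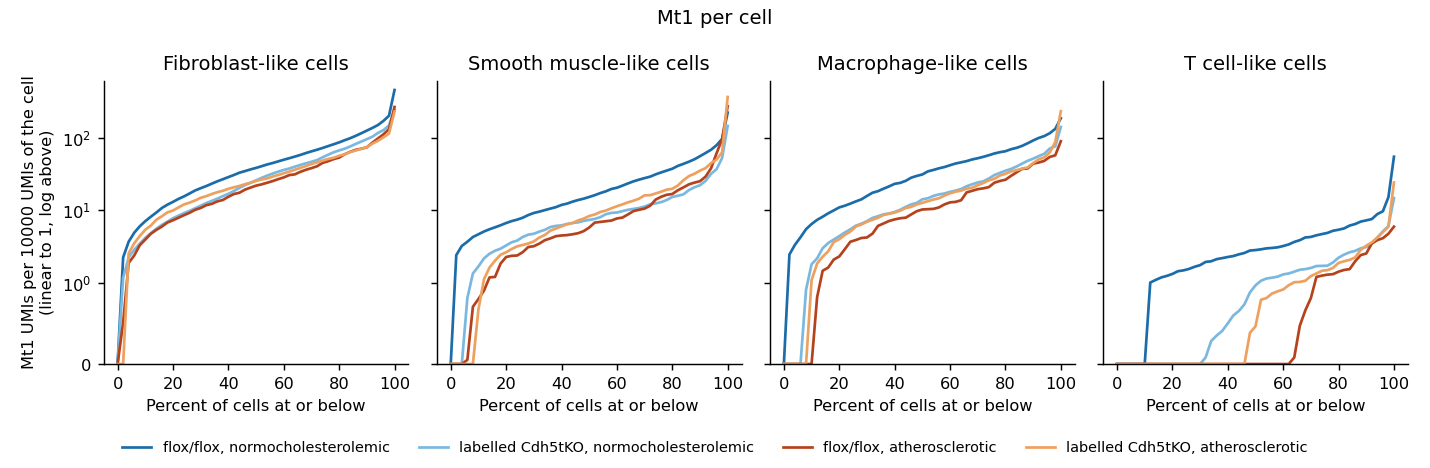
Mt1 UMIs per 10000 UMIs of each cell (y axis, linear to 1 and log above) at each percentile of cells (x axis), for 3 main cell types and T cell-like cells, with 1 line for each library. The line of the normocholesterolemic flox library lies above the other 3 over nearly the whole range in all panels, with medians of 38.4 in fibroblast-like and 15.3 in smooth muscle-like cells, and the steep right end of the smooth muscle panel is made by few cells.

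The proportion of the 2 genes depended on the cell type. Fibroblast-like cells had 21.6 (21.4 to 21.7), 21.6 (21.3 to 21.9), 26.8 (26.0 to 27.6) and 25.0 (24.5 to 25.5) Mt2 UMIs for each 100 of Mt1, higher in both atherosclerotic libraries. Macrophage-like cells had 9.17 (8.82 to 9.53), 7.31 (6.57 to 8.11), 6.98 (5.73 to 8.43) and 6.77 (6.01 to 7.61), below the fibroblast-like value in each library. Smooth muscle-like cells had 10.1, 10.6, 21.7 and 11.6, and without the top 1% of cells the third value was 14.0 (11.5 to 16.9). T cell-like cells had 18.9 (15.9 to 22.3) in the first library and 18, 25.5 and 24.5 in the others, on 27, 13 and 12 Mt2 UMIs. Among fibroblast states the proportion was highest in cells with Pi16, Dact2 and Dpp4, at 28.1 (27.6 to 28.7), 31.4, 33.9 and 33.2. It was lower with Comp, Fmod and Chad, at 18.7 (17.8 to 19.6), 20.1, 24.8 and 23.4, and with Cilp and Meox1, at 17.1 (15.7 to 18.6) and 20.3 (19.2 to 21.4). The Pi16 state was thus above the Comp state in each library. AIR macrophage-like cells had 8.98, 8.45, 0.583 (0.0703 to 2.12) and 3.69 (2.37 to 5.50), with the third value resting on 2 Mt2 UMIs.

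**Figure D4:**
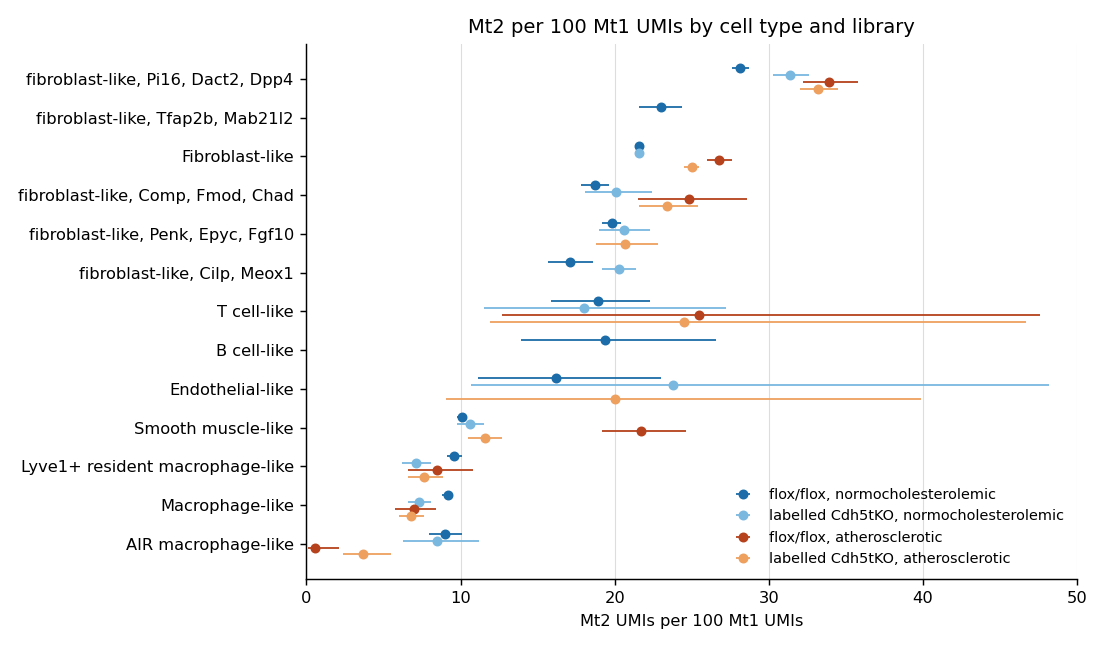
Mt2 UMIs per 100 Mt1 UMIs (x axis) by cell type and fibroblast state (rows) and library (colours), with exact 95% intervals for counting error. Macrophage-like cells as a whole lie at 6.77 to 9.17, all fibroblast states lie at 17.1 or above, and the cells with Pi16, Dact2 and Dpp4 lie furthest to the right, at 28.1 to 33.9; the third smooth muscle-like point rests on a single cell.

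Cells were then split within each type and library into the 10% with the most Mt1 for their depth and the rest, a split by Mt1 alone, and the other genes were read in both parts. In fibroblast-like cells the upper part had 17373, 12748, 11478 and 10095 CPM of Mt1 against 4213, 2955, 2470 and 2692 in the rest, at median depths of 12369, 14876, 13998 and 13110 UMIs per cell against 12028, 16836, 13801 and 10242. In the first library the mitochondrial share was 1.63% and 1.70%. Mt2 was also higher in the upper part, with log2 ratios of 1.74 (1.72 to 1.77), 1.78 (1.74 to 1.83), 1.83 (1.75 to 1.91) and 1.41 (1.35 to 1.47). In macrophage-like cells Mt2 was at 1.76 (1.63 to 1.88), 1.68 (1.33 to 2.02), 2.48 (1.87 to 3.07) and 2.27 (1.88 to 2.64). The third of these came from 11 cells, and with the top 5% of cells, which were 6, it was 1.29 (0.18 to 2.22). In smooth muscle-like cells of the 3 libraries with at least 100 of them, Mt2 was at 1.47 (1.38 to 1.56), 0.93 (0.60 to 1.24) and 2.08 (1.78 to 2.37). In all 3 types the 10% of cells with the most Mt1 therefore also had more Mt2, in the libraries read. Whether the 2 genes went together among the remaining cells was not tested.

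Of 2730 other genes with enough counts in all 8 pairs of type and library (fibroblast-like and macrophage-like), 63 were higher in the upper part in all 8, and 0 were so by 2-fold in all 8. The 10 with the highest lowest ratio were Arid5a (lowest log2 ratio 0.76, median 0.92), Irf1 (0.56, median 0.76), Cebpb (0.56, median 0.96), Sbno2 (0.50, median 0.86), Ccl7 (0.49, median 1.17), Csrnp1 (0.46, median 0.69), Cebpd (0.44, median 0.94), Ifi207 (0.44, median 0.86), Bcl3 (0.44, median 0.96) and Nop58 (0.42, median 0.86). Arid5a encodes a protein that stabilises Il6 mRNA, Irf1 an interferon-responsive transcription factor, Cebpb and Cebpd the factors of the acute phase response, Ccl7 a chemokine for monocytes, and Bcl3 a partner of NF-κB. Bcl3 is also in the acute phase and Stat3 list and Cebpd in the glucocorticoid list.

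The fixed lists were read in the same way. In fibroblast-like cells the acute phase and Stat3 list was higher in the upper part, with medians of 0.96, 0.90, 0.50 and 0.96 and 7 of 7, 6 of 6, 4 of 6 and 7 of 7 tested genes above 0, beside medians of −0.11, −0.15, −0.09 and −0.09 over all genes. Of the list, 3, 3, 1 and 3 genes were at least 2-fold higher, and in the atherosclerotic flox library 1 was 2-fold lower, against 0.761%, 2.86%, 1.02% and 0.95% of all genes tested. In macrophage-like cells its medians were 0.56, 0.87, 0.79 and 0.73 over 3 or 4 tested genes. Zinc-handling genes stood at −0.09, −0.03, −0.03 and −0.10 in fibroblast-like cells, close to all genes, copper-handling genes at −0.09, 0.05, −0.24 and −0.07, and heat shock genes at −0.06, −0.39, −0.07 and −0.02. In the first library 2 of the 6 heat shock genes were above 0. A split within 1 library does not bear on their difference between libraries. Glucocorticoid-responsive genes were at 0.31, 0.44, −0.04 and 0.09, Nrf2 targets at 0.07, 0.21, 0.18 and 0.20 and immediate early genes at 0.13, −0.13, 0.53 and 0.24. Cells of 1 library are not replicates, and these values describe the cells of 4 pools.

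**Figure D5:**
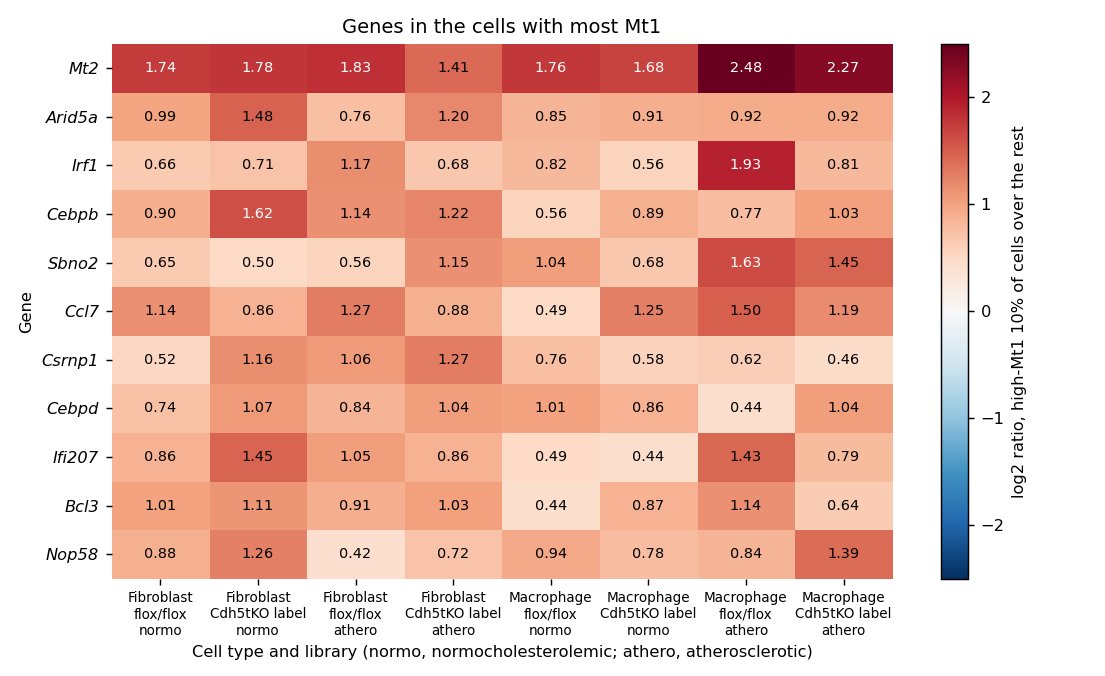
Log2 ratios (numbers and colour scale) of the 10% of cells with the most Mt1 over the rest, for Mt2 and the 10 genes with the highest lowest ratio (rows) in fibroblast-like and macrophage-like cells of the 4 libraries (columns). Mt2 is the highest in each column, from 1.41 to 2.48, and the other genes range from 0.42 to 1.93.

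Over 33 sums by type and library from 12 cell types, log2(CPM + 1) of Mt1 and that of Mt2 went together with a Pearson correlation of 0.94 and a Spearman correlation of 0.94; these points share libraries and depth, and the values are descriptive. Among 3175 genes of at least 50 CPM on average, the pattern most like that of Mt1 plus Mt2 was that of Axl (0.88), a receptor for dying cells, followed by Cd302 (0.85), Pmp22 (0.83), Cst3 (0.83), Fosb (0.82), Creb5 (0.82), Ecm1 (0.82), Col14a1 (0.81), Lmna (0.81) and Cd63 (0.81). Of these 10, 7 were also among the first 10 by Spearman correlation. Once the mean of each cell type was taken out, the correlation was 0.75 for Lmna, 0.71 for Cd302 and 0.70 for Fosb but 0.33 for Axl and 0.16 for Pmp22, so that the likeness of the latter lay mainly between cell types.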

How the data were processed

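Single-cell libraries (10x Chromium 3′ kit) of sorted live aortic cells were made by the authors, 1 pool of mice per group. The values the authors deposited are raw UMI counts per gene and barcode, made by mapping to mm10 with Cell Ranger 6.1.2 and not normalized; the counts were used as deposited. Barcodes were kept if they had 200 to 6000 genes and no more than 15% of mitochondrial UMIs. A marker was called present at 1 UMI or more and at least 10% of the 95th percentile of positive cells, and a cell type needed 3 present markers. Predicted doublets (Scrublet in scanpy 1.11.5, 306 cells, 2.16%) were kept. UMIs were summed by type and library and scaled to the sum of all UMIs of the same cells, and genes with at least 50 UMIs in both sums together were compared. With 1 library per group no test was made. The ratios were checked on simulated counts without spread between cells, mice or libraries, which covers counting error only. The members, the gene lists and the comparisons were chosen with earlier results of these data known, and the way markers were scored was set after the counts were seen. Named genes were the members, the 3 genes with the most UMIs of each list, the 10 most like genes and the 10 genes highest in high-Mt1 cells, as ranked by fixed rules. Mtf1, Slc39a1 in macrophage-like cells and the genes of the high cell were singled out after their values were seen. So were Lcn2, Saa3 and the named Nrf2 targets and glucocorticoid-responsive genes beyond the 3 with the most UMIs. Gene positions are from the GENCODE annotation of GRCm38 and promoter windows from RefSeq. The tools were edgeR 4.0.16 (TMM factors only) in R 4.3.3 and, in Python 3.11.15, pandas 2.3.3, matplotlib 3.10.9, scipy 1.17.1 and numpy 2.4.6. The alternatives were other cell filters, gates, scalings, depths and top-cell limits. One agent given to the atherosclerotic mice is not reported here.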

Additional observations from a re-analysis of the deposited data

Results flagged for a closer look

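In 4 cases the same contrast had opposite signs in a pair of settings, with each counting interval clear of 0. With the KO label over flox, Mt1 in fibroblast-like cells was at −0.53 on the log2 scale in normocholesterolemic and 0.10 in atherosclerotic mice, and Mt1 in macrophage-like cells at −0.98 and 0.22. With atherosclerotic over normocholesterolemic mice, Mt2 in fibroblast-like cells was at −0.41 in flox and 0.11 in KO-labelled mice, and Mt1 in smooth muscle-like cells at −0.42 and 0.32. Each of these pairs holds 1 ratio against the normocholesterolemic flox library. The difference between the ratios was not tested, since each rests on 1 library per group.

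The barcodes left out by the limits also held Mt1. Barcodes over 15% mitochondrial UMIs had 2126, 962, 844 and 1015 CPM of Mt1 in the 4 libraries. Barcodes with under 200 genes had 2199 CPM in the normocholesterolemic flox, 490 in the normocholesterolemic KO-labelled and 760 in the atherosclerotic KO-labelled library, on 204, 28 and 7 UMIs.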

How the results depend on the processing

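No paired analysis was possible because each group is 1 library, and no replicate could be left out. For Mt1 in fibroblast-like cells every alternative kept the direction of all 4 ratios. With the KO label over flox in normocholesterolemic mice (−0.53) the value was −0.47 as a mean over cells, −0.51 without the top 1% of cells, −0.57 with median-of-ratios and −0.59 with TMM scaling; in atherosclerotic mice (0.10) it was 0.06 as a mean over cells, 0.15 with median-of-ratios and 0.14 with TMM. For atherosclerotic over normocholesterolemic flox mice (−0.73) these were −0.71, −0.82 and −0.78, and for KO-labelled mice (−0.10) −0.18, −0.08 and −0.05, with −0.12 without the top 1%. Ratios with an interval clear of 0 changed sign without the top 1% of smooth muscle-like cells, Mt1 of the atherosclerotic pair to 0.03 and Mt2 of the flox diet pair to −0.53, and for Mt1 of macrophage-like over smooth muscle-like cells in the atherosclerotic flox library (−0.15), which was 0.03 with a stricter gate, 0.06 as a mean over cells and 0.45 without the top 1%. As a mean over cells, Mt2 in macrophage-like cells also changed sign, from 0.18 to −0.04 in the atherosclerotic pair and from −0.20 to 0.27 for diet in KO-labelled mice, both with intervals that held 0. Of 240 recomputed ratios, 185 stayed within their counting interval, 53 moved beyond it and 2 reversed with an interval clear of 0. As a mean over cells, Mt2 of macrophage-like cells in the atherosclerotic flox library was 175 CPM in place of 115, and Mt2 of smooth muscle-like cells in the atherosclerotic pair was at −0.61 in place of −1.34. Shares of positive cells depended on depth, as shown by thinning. The alternatives without single high cells and in smooth muscle-like high-Mt1 cells were chosen after seeing the data. Depth limits Mt2 in AIR macrophage-like and endothelial-like cells of the atherosclerotic flox library, with 2 UMIs each.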

Other observations

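Rarer myeloid cells also held Mt1. In the normocholesterolemic flox library, 20 dendritic cell-like cells, which present antigen, had 1954 (1811 to 2105) CPM of Mt1 and 291 (238 to 353) of Mt2. In the same library 31 classical monocyte-like cells had 956 (866 to 1053) CPM of Mt1, 31 nonclassical monocyte-like cells 492 (411 to 584) and 92 neutrophil-like cells 487 (418 to 565). Classical monocyte-like cells of the atherosclerotic flox library had 86.7 (58.5 to 124) CPM in 23 cells, a log2 ratio of −3.46 (−4.05 to −2.93) against the normocholesterolemic flox library. In the atherosclerotic KO-labelled library 1 of 7 classical monocyte-like cells held 144 of the 165 Mt1 UMIs (87.3%). Mesothelial-like cells, which cover the outer surface, had 1435 (1210 to 1691) and 675 (570 to 795) CPM of Mt1 in 8 and 13 cells of the normocholesterolemic flox and KO-labelled libraries. Each of these types holds few cells, and none of the values was tested.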
